A study of Mus musculus with 6 samples.

Results

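Immune checkpoint receptors and their ligands are cell-surface proteins that hold T cell and myeloid responses in check, and several are the targets of antibodies used in cancer treatment. The 10 genes described here were matched by symbol in the gene lists of all 6 libraries, and each was found in every library among 32285 genes. They comprise 6 receptors, Pdcd1 (PD-1), Ctla4, Lag3, Havcr2 (TIM-3), Tigit and Vsir (VISTA), and 4 ligands, Cd274 (PD-L1), Pdcd1lg2 (PD-L2), Nectin2 (CD112) and Pvr (CD155). Their values were counted as UMIs, the molecular tags that mark single captured transcripts, in pancreatic tumours of KPC mice profiled by droplet single-cell RNA sequencing with 1 library per mouse. The treated group was 3 mice given trametinib, an inhibitor of the kinase MEK, at 1 mg/kg by mouth together with hydroxychloroquine, which blocks the last step of autophagy, at 40 mg/kg by mouth. The vehicle group was 3 mice given corn oil and water. All 6 mice carried p53LSL.R172H/+ and Pdx1-Cretg/+, so that Cre driven by the Pdx1 promoter switched on mutant p53 in the pancreatic epithelium and not in the immune cells. Mice were randomized once a tumour of 4 to 7 mm was seen by ultrasound, and tumours were taken 24 h after treatment. The ages of the mice are not given in the sources used here.

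PD-1 on activated T cells is engaged by PD-L1 and PD-L2 and lowers signalling through the T cell receptor. CTLA-4 competes with the costimulatory receptor CD28 for CD80 and CD86, and regulatory T cells carry it constantly. TIGIT binds PVR and, in humans, nectin-2, which also serve the activating receptor CD226. LAG-3 binds MHC class II, TIM-3 is carried by exhausted T cells as well as by macrophages and dendritic cells, and VISTA is carried mainly by myeloid cells. Pancreatic ductal adenocarcinoma is known for few T cells, many macrophages and neutrophils, and poor responses to antibodies against PD-1, PD-L1 or CTLA-4.

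After filtering, 37007 cells were kept, between 3926 and 5977 in treated mice and between 2138 and 10322 in vehicle mice. They fell into 16 classes named from marker genes, and 7.23% stayed unnamed. Cells of treated mice were deeper, with medians of 8449 to 11175.5 UMIs, against 2990.5 to 4719 UMIs for vehicle mice. The library of vehicle mouse 1 stood apart: no more than 25.9% of its barcodes had their leading 7 bases in any other library, against at least 99.8% between the other libraries, and any pair of libraries shared at most 24 barcodes. The tumour and ductal epithelial class carried its 10 defining markers at a summed level of 3060 to 9190 CPM (counts per 1000000 UMIs of the class) in treated mice and 3800 to 14000 CPM in vehicle mice. The class was named from these same markers, so the sums do not test whether tumour cells were present in each library. This class, called tumour cells below, was not split into tumour and ductal cells. Levels below are CPM of a class in a mouse, taken over all its cells, and classes of fewer than 20 cells in a mouse were not tested.

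Transcripts of the T cell receptors PD-1 and CTLA-4 lay mostly in T and NK lymphocytes, and those of PD-L1 and VISTA mainly in macrophages and neutrophils. Those of TIM-3 lay in macrophages, then tumour cells and neutrophils. Those of nectin-2 lay in tumour cells, fibroblasts and endothelial cells, and those of PVR in tumour cells, macrophages and fibroblasts. Among mice with at least 20 cells of the class, levels were higher in every treated mouse than in any vehicle mouse for Cd274 in macrophages and dendritic cells, Ctla4 in T and NK lymphocytes, Lag3 in tumour cells, Pvr in endothelial cells and Nectin2 in macrophages, and lower in every treated mouse for Tigit in tumour cells. None of the 10 genes passed the threshold of an adjusted p under 0.05 in edgeR's quasi-likelihood test in any of 8 classes. Of 80 combinations of gene and class, 34 had enough counts for that test and 46 were tested by exact permutation only. Among the 34, 4 had an unadjusted edgeR p under 0.05, and the separations just named, all among the 34, are 6 above and 1 below. Among the 46, Pvr in T and NK lymphocytes, Pvr in B lymphocytes and Vsir in dendritic cells were also lower in every treated mouse. DESeq2 called 1 of the 10 genes, Lag3 in tumour cells.

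The same test called few genes of any kind, and these shares are the background for the counts of checkpoint genes. It called 0% of the genes tested in tumour cells, macrophages, neutrophils, fibroblasts and dendritic cells, 1.57% in endothelial cells, 0.161% in T and NK lymphocytes and 0.492% in B lymphocytes. An unadjusted p under 0.05 was reached by 13.7% of genes in tumour cells, 8.3% in macrophages, 5.7% in neutrophils, 16.1% in fibroblasts, 20.8% in endothelial cells, 3.85% in T and NK lymphocytes, 4.79% in B lymphocytes and 7.17% in dendritic cells. Groups without overlap were common in some classes: every treated mouse was above every vehicle mouse for 22.5% of genes in tumour cells, 19.1% in endothelial cells and 14.3% in dendritic cells, but for 6.52% in macrophages and 4.54% in T and NK lymphocytes. The median log2 fold change of the tested checkpoint genes was -0.65 over 8 genes in tumour cells against -0.05 over all genes there, 0.21 over 7 in macrophages against 0.01, -0.29 over 5 in neutrophils against -0.06, -0.34 over 4 in fibroblasts against 0.00091, and 0.16 over 4 in T and NK lymphocytes against 0.01. Over 3 genes each, it was 0.46 in endothelial cells against 0.01 and 0.43 in dendritic cells against -0.01.

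**Figure D1:**
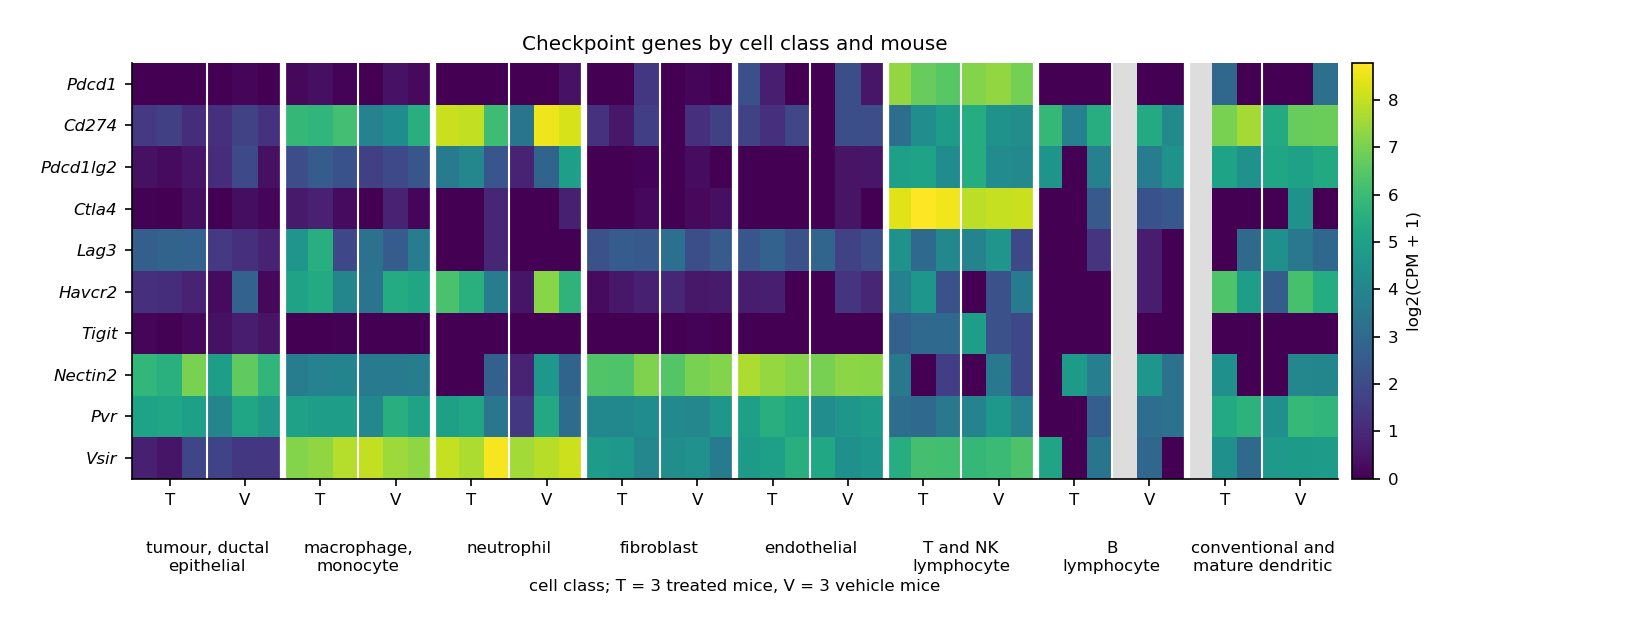
Level of each checkpoint gene as log2(CPM + 1) by colour (the scale runs from 0), with genes in rows and, for each of 8 cell classes, the 3 treated mice (T) left of the 3 vehicle mice (V); grey marks a mouse with fewer than 20 cells of that class. Pdcd1 and Ctla4 are brightest in T and NK lymphocytes, Cd274 in neutrophils and dendritic cells, Vsir in neutrophils and macrophages, and Nectin2 in endothelial cells, fibroblasts and tumour cells.

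Ctla4 lies on chromosome 1 (mm10, chr1:60887000-60915832, plus strand), and 89.8% of its 1246 UMIs came from T and NK lymphocytes. Treated mice 1, 2 and 3 had 332, 439 and 385 CPM of Ctla4 there, and vehicle mice 1, 2 and 3 had 240.2, 256 and 269.6 CPM. All 3 treated mice were above all 3 vehicle mice. These levels rested on 123, 187 and 549 UMIs in treated mice and on 17, 145 and 98 UMIs in vehicle mice. Treated mice averaged 385 ± 53.2 CPM and vehicle mice 255 ± 14.7 CPM (SD, n = 3 each), a log2 fold change of 0.60 ± 0.30 (SE) with an edgeR adjusted p of 0.999 and an unadjusted p of 0.0616. Leaving out any 1 mouse gave 0.49 to 0.71, and 0.63 without vehicle mouse 1.

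Because T and NK lymphocytes were deeper in treated mice (median 3135 to 3277.5 UMIs) than in vehicle mice (1150 to 1746 UMIs), shares of cells with a Ctla4 UMI were compared after each cell had been thinned to 1000 UMIs. Cells under 1000 UMIs were left out, and the medians place vehicle cells nearer that limit. The part of this selection in the shares was not tested. The thinned share was 25.3%, 29.7% and 27.8% in treated mice, against 12.5%, 20.8% and 21.8% in vehicle mice, without overlap. Its mean was 27.6 ± 2.24% in treated mice and 18.4 ± 5.11% in vehicle mice (SD, n = 3 each; two-sided exact permutation p = 0.1, the smallest that 3 against 3 mice allow, and 1 after adjustment over 80 tests). Thinned shares come from the same UMIs as the CPM. Over the 80 combinations of gene and class at 1000 UMIs, 5 had groups without overlap. No background over all genes was taken for shares at any depth. Without thinning the Ctla4 shares were 54.3%, 50.4% and 50.4% in treated mice, as set against 26.2%, 30% and 23% in vehicle mice. Tumour cells, which should lack Ctla4 and had median depths of 19125 to 40081 UMIs (treated) and 13224 to 24847.5 UMIs (vehicle), held a UMI in 9 of 4569 treated cells (0.197%) and 25 of 6363 vehicle cells (0.393%).

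The T and NK class held 94, 115 and 367 cells in treated mice, at most 6.14% of a mouse's kept cells, and 42, 283 and 239 cells in vehicle mice, at most 2.99%. Its markers for other cells also differed between groups. Neutrophil markers, all 8 of which were detected, summed to 11.7 to 58.2 CPM in treated mice and 145 to 6310 CPM in vehicle mice; macrophage markers, 10 of 10 detected, to 206 to 224 CPM in treated mice and 226 to 332 CPM in vehicle mice. Plasmacytoid dendritic markers, 7 of 7 detected, summed to 222 to 365 CPM in treated mice and 81.3 to 198 CPM in vehicle mice. The part of these cells in the Ctla4 values was not tested.

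Cells with a Foxp3 UMI, counted as regulatory T cells, made up 22.6 ± 1.91% of the T and NK class in treated mice and 11.6 ± 4.42% in vehicle mice (SD, n = 3 each; exact permutation p = 0.1, the smallest possible). Helper T cells (a Cd4 UMI) were 16.8 ± 2.69% in treated and 9.39 ± 3.05% in vehicle mice (exact permutation p = 0.1). CD8 T cells (a Cd8a or Cd8b1 UMI) were 13.9 ± 7.00% in treated and 5.22 ± 5.91% in vehicle mice (exact permutation p = 0.2). Cells outside every gate were 45.8 ± 2.87% in treated and 71.65 ± 10.1% in vehicle mice (exact permutation p = 0.1). NK cells were 0.852% in treated and 2.10% in vehicle mice. Such gates rest on single UMIs and move with depth: the level of Foxp3 in the whole class overlapped, at 119, 113 and 142 CPM in treated mice and 169.5, 81.3 and 77.0 CPM in vehicle mice. Ctla4 was highest in the regulatory T cells of both groups, where its pooled level was 593 CPM (442 UMIs, 136 cells) in treated mice and 443 CPM (72 UMIs, 55 cells) in vehicle mice. Over mice with at least 20 such cells, treated mice averaged 568 ± 120 CPM (SD, n = 3) and vehicle mice 457 ± 80.9 CPM (SD, n = 2), and the values overlapped (exact permutation p = 0.3). In cells left outside the regulatory T, CD8 T, helper T and NK gates, Ctla4 was 269, 327 and 324 CPM in treated mice and 233, 264 and 211 CPM in vehicle mice, without overlap (exact permutation p = 0.1). The levels in CD8 T cells rested on 33 UMIs in treated mice and 5 in vehicle mice.

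Pdcd1 (chr1:94038305-94052553, minus strand) was likewise a T and NK transcript, with 83.9% of its 453 UMIs there. Treated mice had 165, 106 and 89.0 CPM and vehicle mice 141, 164 and 121 CPM, and the groups overlapped. This gave a log2 fold change of -0.26 ± 0.31 (SE; edgeR adjusted p = 0.999). After thinning, 16.5%, 9.01% and 7.58% of treated cells and 4.17%, 13.7% and 10.6% of vehicle cells held a Pdcd1 UMI. Those shares overlapped; at 500 UMIs they also overlapped, and at 2000 UMIs treated mice had 13.4% to 22.9% and the 2 vehicle mice with enough cells 11.8% to 12.7% (exact permutation p = 0.2). Regulatory T cells held Pdcd1 at pooled levels of 153 CPM in treated mice and 172 CPM in vehicle mice, while CD8 T cells were too few to compare: treated mice 1, 2 and 3 had 12, 7 and 0 UMIs in 20, 15 and 27 cells, and all 5 vehicle UMIs came from the 34 cells of mouse 2. Fibroblasts held 25 Pdcd1 UMIs, of which 23 came from treated mouse 3. Tumour cells held Pdcd1 in 0 of 4569 treated cells, which allows a share of cells with a captured UMI of up to 0.0657%, and in 7 of 6363 vehicle cells.

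**Figure D2:**
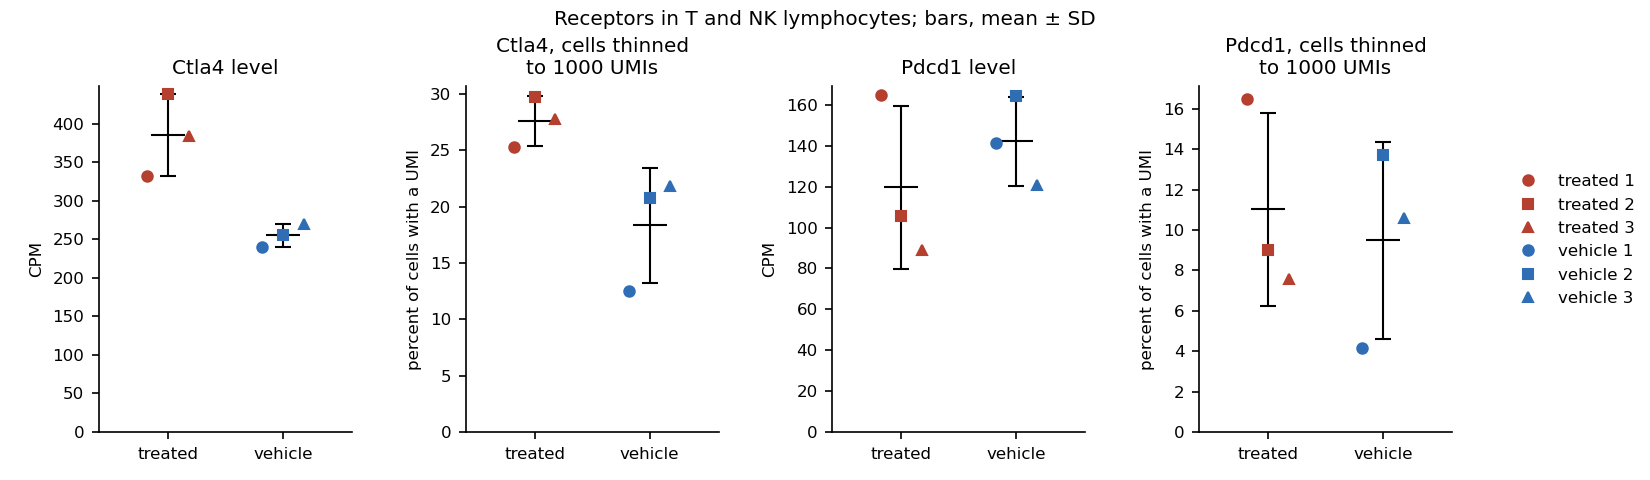
Ctla4 and Pdcd1 in T and NK lymphocytes, as CPM and as the percent of cells with a UMI after thinning to 1000 UMIs, 1 point per mouse, treated left of vehicle, with black bars for mean ± SD (n = 3 each). For Ctla4 the treated mice lie at 332 to 439 CPM and above the vehicle mice in both panels, while Pdcd1 overlaps in both.

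Of 1140 T and NK cells, 445 held Ctla4, 238 held Pdcd1 and 124 held both, where the product of the shares gives 92.9 cells. The other receptors were seen in few of these cells, Lag3 in 33, Havcr2 in 23 and Tigit in 20. Deeper cells show more of every transcript, so these joint counts are a description only.

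Tigit (chr16:43648867-43664146, minus strand) was barely captured, with 117 UMIs in all kept cells. In T and NK lymphocytes treated mice had 2, 3 and 10 UMIs, or 5.40, 7.04 and 7.01 CPM, and vehicle mice had 2, 2 and 1 UMIs, or 28.3, 3.53 and 2.75 CPM, with overlap. Most Tigit UMIs, 91, fell in tumour cells, at 0.102, 0.0418 and 0.142 CPM in treated mice and 0.311, 0.599 and 0.385 CPM in vehicle mice. All 3 treated mice were below all 3 vehicle mice in that class, as were 3.79% of all genes tested there. The log2 fold change was -2.54 ± 0.65 (SE; edgeR adjusted p = 0.324). Tumour cells were fixed as a class that should lack Tigit, and a UMI was found in 11 of 4569 treated and 76 of 6363 vehicle tumour cells. Macrophages and fibroblasts held 1 Tigit UMI each, and endothelial cells and neutrophils 0. Where the tumour cell UMIs came from was not tested.

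Lag3 (chr6:124904361-124911705, minus strand) was spread over several classes, with 41.5% of its 2125 UMIs in tumour cells and 35.8% in macrophages. In tumour cells it stood at 5.29, 6.005 and 5.80 CPM in treated mice and 1.76, 1.32 and 0.807 CPM in vehicle mice. Every treated mouse was above every vehicle mouse, on 698 UMIs in treated mice and 183 in vehicle mice. The log2 fold change was 1.84 ± 0.44 (SE), with an edgeR adjusted p of 0.324, 2.06 without vehicle mouse 1 and 1.65 to 2.06 leaving out any 1 mouse. DESeq2 gave 1.91 with an adjusted p of 0.000304, and called 3.53% of the genes it tested in that class.

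Several other measurements stand beside this one. Tumour cells were a class fixed to serve as background for Lag3, and unthinned 12.0% of treated and 2.72% of vehicle tumour cells held a UMI. Thinned to 1000 UMIs, the shares were 0.341 ± 0.120% in treated mice and 0.299 ± 0.159% in vehicle mice (SD, n = 3 each; exact permutation p = 0.5), with overlap. At other depths the groups did not overlap: at 500 UMIs the shares were 0.245 ± 0.0190% in treated and 0.105 ± 0.0967% in vehicle mice, and at 2000 UMIs 1.35 ± 0.347% in treated and 0.238 ± 0.0307% in vehicle mice (SD, n = 3 each; exact permutation p = 0.1 for each, the smallest possible). Ptms, which encodes the nuclear protein parathymosin, is the nearest coding gene, on the same strand and 1976 bp before the start of Lag3. Ptms stood at 880.5, 929.5 and 788 CPM in treated tumour cells and 527, 512 and 364 CPM in vehicle tumour cells, also without overlap. Plasmacytoid dendritic markers summed to 21.8 to 75.8 CPM in treated and 13.2 to 20.2 CPM in vehicle tumour cells. The part of either in the Lag3 values was not tested.

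Tumour cells of different mice mostly filled different clusters. In treated mice 1 and 2, cluster 2, found in no vehicle mouse at 20 or more cells, held 77.98% and 78.52% of tumour cells and had Lag3 at 5.88 and 6.14 CPM. In 5 of the 6 clusters with at least 20 cells in mice of both groups the treated values were above: in cluster 8 Lag3 was 2.14, 3.38 and 1.86 CPM in treated mice 1, 2 and 3 and 1.26 and 0.842 CPM in vehicle mice 2 and 3. In cluster 25 it was 6.85 CPM in treated mouse 3 and 1.46 CPM in vehicle mouse 2. Cluster 9, with 50.9% of the tumour cells of treated mouse 3, had 2.36, 4.53 and 7.01 CPM in treated mice and 0 and 2.04 CPM in vehicle mice 2 and 3. Cluster 18 had 3.19 CPM in treated mouse 3 and 1.75 and 0.786 CPM in vehicle mice 1 and 2. Cluster 28 had 4.07 CPM in treated mouse 3 and 0.790 CPM in vehicle mouse 3, with 0 UMIs in the 22 cells of vehicle mouse 2. Cluster 21, the exception, had 0 UMIs in treated mice 2 and 3 and 1 UMI, 0.890 CPM, in vehicle mouse 2. Several of these values rest on fewer than 10 UMIs.

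**Figure D3:**
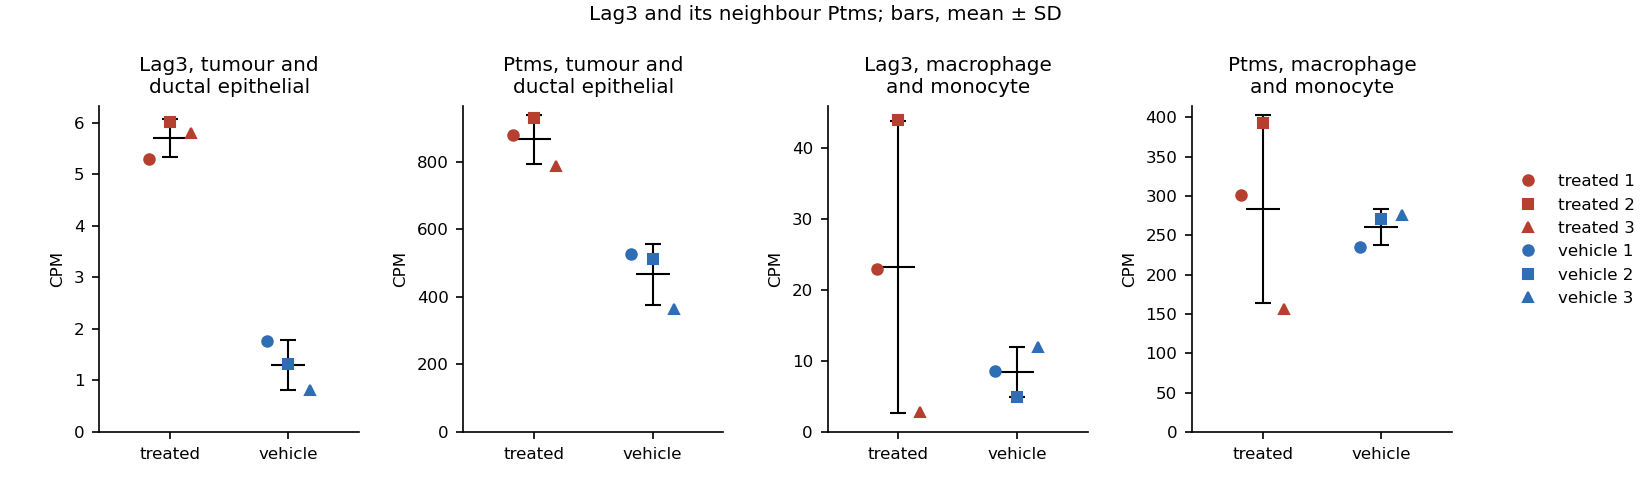
Lag3 and its neighbour Ptms in tumour and ductal epithelial cells and in macrophages and monocytes, as CPM per mouse, treated left of vehicle, with black bars for mean ± SD (n = 3 each). In tumour cells both genes separate the groups, Lag3 at 5.29 to 6.005 CPM in treated and 0.807 to 1.76 CPM in vehicle mice; in macrophages both overlap, and treated mouse 3 is the lowest for both.

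In macrophages and monocytes Lag3 was uneven among treated mice, at 23.0, 43.9 and 2.76 CPM, against 8.58, 4.92 and 11.9 CPM in vehicle mice. Treated mice 1 and 2 were above and treated mouse 3 below every vehicle mouse. The log2 fold change was 1.41 ± 0.89 (SE; edgeR adjusted p = 0.698). The high values sat in clusters 5 and 15 of treated mice 1 and 2. C1qa and C1qb were among the leading genes of both, but also of clusters 0, 1 and 6, where Lag3 was lower. In cluster 5, Lag3 was 54.2, 82.8 and 4.80 CPM in treated mice and 7.85 and 20.1 CPM in vehicle mice 2 and 3. In T and NK lymphocytes it was 21.6, 7.04 and 16.1 CPM in treated and 14.1, 23.0 and 2.75 CPM in vehicle mice. Plasmacytoid dendritic cells, which carry LAG-3 in mice, had 105 and 172 CPM in treated mice 2 and 3 and 151 and 142 CPM in vehicle mice 2 and 3, from at most 42 cells a mouse.

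Havcr2 (chr11:46454935-46481255, plus strand), the gene of TIM-3, had 61.8% of its 2902 UMIs in macrophages, 20.2% in tumour cells and 12.6% in neutrophils. Macrophages of treated mice had 32.5, 40.4 and 15.5 CPM and those of vehicle mice 9.44, 41.1 and 34.7 CPM, with full overlap. Treated over vehicle, this was 0.06 ± 0.47 on the log2 scale (SE; edgeR adjusted p = 0.986). Its level was steadier within cluster 5 of the macrophages, at 66.2, 66.8 and 73.3 CPM in treated mice and 67.7 and 51.4 CPM in vehicle mice 2 and 3. Neutrophils ranged from 12.2 to 74.9 CPM in treated mice and from 0.419 to 149 CPM in vehicle mice. T and NK lymphocytes had 20 Havcr2 UMIs in treated and 6 in vehicle mice. Tumour cells, fixed as a class that should lack Havcr2, held a UMI in 120 of 4569 treated and 310 of 6363 vehicle cells. Their levels overlapped, at 0.796 to 1.25 CPM in treated and 0.133 to 5.82 CPM in vehicle mice. The log2 fold change there was -1.15 ± 1.30 (SE, edgeR adjusted p = 0.698). Where these UMIs came from was not tested.

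Vsir (chr10:60346851-60372684, plus strand) encodes VISTA and lies inside Cdh23, which is on the other strand. Of its 17841 UMIs, 73.0% came from macrophages. Neutrophils had 254, 208 and 404 CPM in treated mice and 189, 226 and 276 CPM in vehicle mice. Macrophages had 142, 159 and 222 CPM in treated mice and 249, 180.3 and 158 CPM in vehicle mice. Both classes overlapped, with log2 fold changes of 0.11 ± 0.49 and -0.24 ± 0.33 (SE; edgeR adjusted p = 0.974 and 0.870). T and NK lymphocytes also carried it, at 43.2, 72.7 and 69.4 CPM in treated mice and 56.5, 61.8 and 79.8 CPM in vehicle mice. In dendritic cells both treated mice with enough cells, mice 2 and 3, at 20.1 and 7.19 CPM, were below every vehicle mouse, at 25.2, 26.4 and 27.2 CPM, on 4 treated and 26 vehicle UMIs (exact permutation p = 0.1, adjusted p = 1); the same held for 12.1% of all genes tested there. Marker sums of this class also did not overlap: mature migratory dendritic markers, 8 of 8 detected, stood at 1870 to 3210 CPM in treated mice and 948 to 1440 CPM in vehicle mice, tumour markers, 10 of 10, at 60.3 to 93.4 CPM in treated and 166 to 374 CPM in vehicle mice, and neutrophil markers, 8 of 8, at 13.4 to 35.9 CPM in treated and 73.8 to 282 CPM in vehicle mice. Mesothelial markers, 2 of 6 detected, and pericyte markers, 5 of 8, were at 0 CPM in treated mice and 5.04 to 26.4 and 5.27 to 13.6 CPM in vehicle mice. Their part in the Vsir values was not tested.

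Cd274 (chr19:29367455-29388095, plus strand), the gene of PD-L1, had 56.8% of its 6436 UMIs in macrophages and 25.2% in neutrophils. Macrophages of treated mice had 57.3, 53.5 and 69.8 CPM, and those of vehicle mice had 13.7, 18.1 and 44.2 CPM. Every treated mouse was above every vehicle mouse, and vehicle mouse 3 was the nearest to the treated group. Treated mice averaged 60.2 ± 8.54 CPM and vehicle mice 25.4 ± 16.5 CPM (SD, n = 3 each), a log2 fold change of 1.23 ± 0.39 (SE). The unadjusted edgeR p was 0.0143 and the adjusted p 0.431, and 8.3% of all genes in that class had an unadjusted p under 0.05. Without vehicle mouse 1 the log2 fold change was 1.03, and leaving out any 1 mouse gave 0.98 to 1.87.

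Unthinned, 25.7%, 18% and 43.3% of macrophages held a Cd274 UMI in treated mice, against 5.67%, 7.64% and 13.3% in vehicle mice. Thinned to 1000 UMIs, treated mice had shares of 4.78%, 3.62% and 6.89% and vehicle mice of 2.84%, 1.81% and 4.65%, which overlapped (treated mean 5.10 ± 1.66%, vehicle mean 3.10 ± 1.44%, SD, n = 3 each; exact permutation p = 0.2). They overlapped at 500 UMIs too (exact permutation p = 0.7), but not at 2000 UMIs, where the shares were 9.89 ± 1.62% in treated and 4.48 ± 2.34% in vehicle mice (SD, n = 3 each; exact permutation p = 0.1, the smallest possible). Within macrophage clusters the groups overlapped in clusters 0, 1, 6 and 15, and different clusters held most macrophages in different mice. In cluster 6, with class II and Il1b among its leading genes, Cd274 was 44.1, 57.1 and 26.1 CPM in treated mice and 14.3, 15.7 and 39.4 CPM in vehicle mice. Cluster 5 kept them apart, at 63.8, 72.8 and 61.7 CPM in treated mice and 34.4 and 46.7 CPM in vehicle mice 2 and 3. Cluster 1, led by Chil3, Lyz2 and Arg1, held 75.3% of the macrophages of treated mouse 3 and had 81.4, 58.8 and 75.6 CPM in treated mice and 38.4, 40.1 and 84.4 CPM in vehicle mice. No marker list of another cell type separated the groups within the macrophage class.

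**Figure D4:**
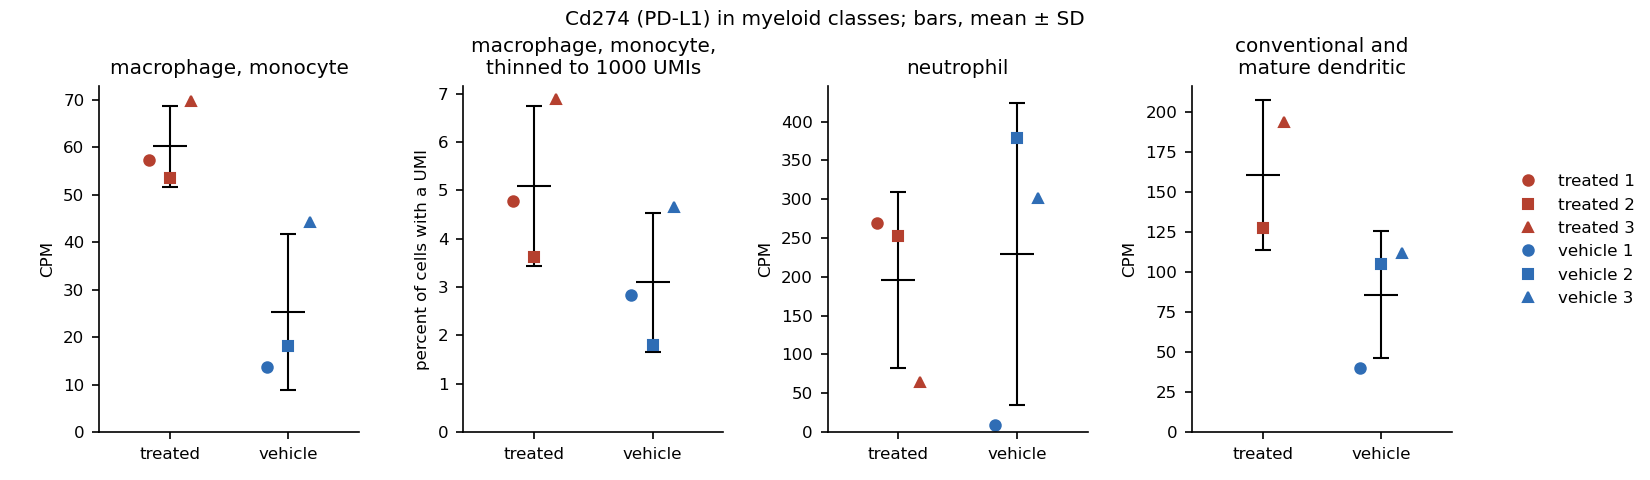
Cd274 (PD-L1) per mouse in macrophages and monocytes, as CPM and as the percent of cells with a UMI after thinning to 1000 UMIs, and as CPM in neutrophils and dendritic cells, treated left of vehicle, with black bars for mean ± SD. Macrophages of treated mice lie at 53.5 to 69.8 CPM, above the 13.7 to 44.2 CPM of vehicle mice; neutrophils overlap, and vehicle mouse 1 is the lowest at 9.63 CPM.

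**Figure D5:**
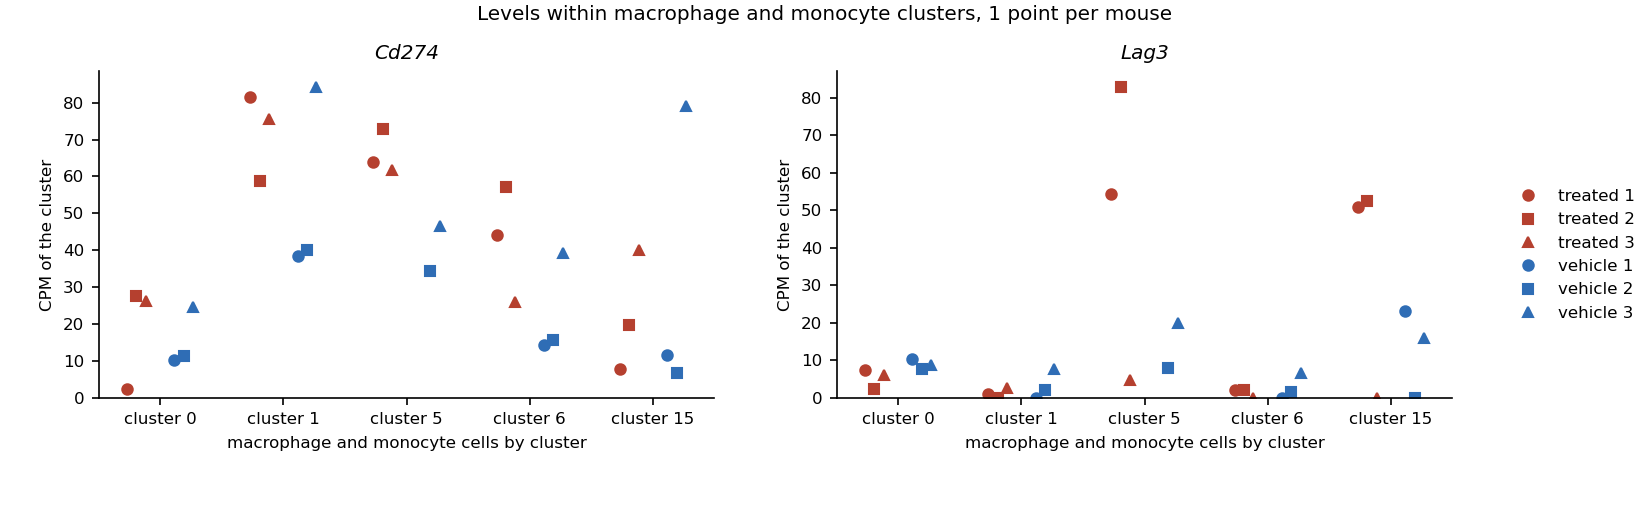
Cd274 (left) and Lag3 (right) within the 5 macrophage and monocyte clusters found in most mice, as CPM of the cluster, 1 point per mouse with treated left of vehicle in each cluster. Cd274 separates the groups in cluster 5 and overlaps in the other 4; Lag3 is at 50.9 to 82.8 CPM in clusters 5 and 15 of treated mice 1 and 2 and at most 23.1 CPM elsewhere.

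Neutrophils had Cd274 at 269.9, 253 and 64.9 CPM in treated mice and 9.63, 379 and 302 CPM in vehicle mice. The low vehicle value was mouse 1, with 24.9% of its neutrophils in cluster 29, led by the granule genes Camp, Ngp and Elane of immature neutrophils. The part of these cells in the low value was not tested. The log2 fold change was -0.29 ± 0.95 (SE; edgeR adjusted p = 0.955) and -0.87 without that mouse. Dendritic cells, tested in 5 mice, had 127 and 194 CPM in treated mice 2 and 3 and 40.3, 105 and 112 CPM in vehicle mice. The treated mice were above without overlap, and the log2 fold change was 0.83 ± 0.43 (SE; edgeR adjusted p = 0.670). Mature migratory markers were likewise higher, and tumour and neutrophil markers lower, in treated mice of this class, by the sums given for Vsir, and their part in the Cd274 values was not tested. Within the class, mature migratory dendritic cells carried most of it and overlapped between groups, at 116, 181 and 380.5 CPM in treated mice and 215, 192 and 194 CPM in vehicle mice, from 10, 10 and 13 treated and 7, 14 and 81 vehicle cells. Tumour cells carried little Cd274, at 1.74, 2.18 and 1.22 CPM in treated and 1.35, 2.30 and 1.42 CPM in vehicle mice (log2 fold change -0.32 ± 0.50, SE; edgeR adjusted p = 0.787).

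Pdcd1lg2 (chr19:29410919-29471161, plus strand) encodes PD-L2 and begins 22824 bp past the end of Cd274. Its 829 UMIs were spread over tumour cells, macrophages, neutrophils and lymphocytes. T and NK lymphocytes had 29.7, 32.8 and 18.2 CPM in treated mice and 42.4, 17.7 and 16.5 CPM in vehicle mice, and macrophages had 3.25, 4.81 and 3.67 CPM in treated mice and 2.15, 2.80 and 4.08 CPM in vehicle mice. Neither class separated the groups. In tumour cells it was 0.306, 0.209 and 0.398 CPM in treated mice and 1.14, 2.88 and 0.301 CPM in vehicle mice, of which vehicle mouse 2 gave 216 of 252 UMIs. Despite a log2 fold change of -2.50 ± 0.84 (SE; edgeR adjusted p = 0.339), the groups overlapped.

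Nectin2 (chr7:19716644-19750483, minus strand) had 31441 UMIs, 67.0% of them from tumour cells. Endothelial cells had 205, 166 and 144 CPM in treated and 125, 151 and 149 CPM in vehicle mice. Fibroblasts had 83.9, 80.7 and 134 CPM in treated and 85.8, 129 and 141 CPM in vehicle mice. Tumour cells had 55.5, 46.7 and 127 CPM in treated and 28.7, 98.2 and 54.5 CPM in vehicle mice, a spread within each group wider than the difference between them (log2 fold change 0.01 ± 0.55, SE; edgeR adjusted p = 0.996). In macrophages, a low and narrow level of 12.2, 13.7 and 14.4 CPM in treated mice lay above 11.6, 11.2 and 11.9 CPM in vehicle mice (0.21 ± 0.20, SE; edgeR adjusted p = 0.810). Lymphocytes, which should lack it, held a UMI in 1.22% of treated and 1.24% of vehicle T and NK cells and in 3.99% of treated and 3.48% of vehicle B cells.

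Pvr (chr7:19903578-19921160, minus strand) had 13418 UMIs, 67.0% of them from tumour cells. Endothelial cells had 31.2, 45.5 and 35.4 CPM in treated mice and 18.7, 23.3 and 27.7 CPM in vehicle mice, all 3 treated mice above, on 204 UMIs in treated and 127 in vehicle mice. The log2 fold change was 0.48 ± 0.24 (SE; edgeR adjusted p = 0.283). In that class the summed endothelial markers were also higher in treated mice, at 7600 to 8350 CPM, against 5780 to 7440 CPM in vehicle mice. Fibroblast markers were lower, at 91.7 to 120 CPM, against 125 to 399 CPM in vehicle mice. So were mature migratory dendritic markers, at 282 to 322 CPM in treated and 334 to 437 CPM in vehicle mice. B lymphocyte markers were lower too, at 1.15 to 3.54 CPM in treated and 4.54 to 18.7 CPM in vehicle mice. The part of these differences in the Pvr values was not tested. Tumour cells had 32.9, 35.4 and 30.5 CPM in treated and 14.9, 34.8 and 26.2 CPM in vehicle mice, and macrophages 31.5, 28.6 and 28.4 CPM in treated and 16.3, 44.5 and 32.6 CPM in vehicle mice. Both overlapped. T and NK lymphocytes, a background class, had 8.11, 7.04 and 10.5 CPM in treated and 14.1, 24.7 and 13.8 CPM in vehicle mice, without overlap on 21 treated and 20 vehicle UMIs (exact permutation p = 0.1, adjusted p = 1), as for 5.57% of genes tested there in that direction. B lymphocytes, another background class, had 0, 0 and 5.196 CPM in treated mice and 7.96 and 8.62 CPM in vehicle mice 2 and 3, also below without overlap, as were 12.2% of genes tested there. This rested on 7 treated and 15 vehicle UMIs (exact permutation p = 0.2, adjusted p = 1). Tumour markers in that class, 10 of 10 detected, summed to 67 to 153 CPM in treated and 431 to 1140 CPM in vehicle mice. Sums of macrophage, T and NK, pericyte and plasmacytoid dendritic markers were also lower there in every treated mouse. In T and NK lymphocytes tumour markers overlapped, at 117 to 397 CPM in treated and 184 to 1290 CPM in vehicle mice. The part of these cells in the Pvr values was not tested.

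Whether the response differed between classes was tested for 20 combinations of gene and pair of classes over 3 pairs, and none passed (edgeR adjusted p at least 0.455, with 0% of all genes called in each pair). An unadjusted edgeR p under 0.05 was reached by 4, 2 each for tumour cells minus macrophages, where 9.2% of all genes reached it, and for tumour minus endothelial cells, where 8.69% did. The largest against its error was Cd274, whose log2 fold change in tumour cells minus that in macrophages was -1.71 ± 0.55 (SE; edgeR adjusted p = 0.455). For Vsir, tumour minus endothelial cells gave -1.58 ± 0.56 (SE; edgeR adjusted p = 0.554). For Lag3, tumour minus endothelial cells gave 1.56 ± 0.68 (SE; edgeR adjusted p = 0.574) and tumour minus macrophages 0.94 ± 1.10 (SE; edgeR adjusted p = 0.813).

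Over all 6 mice, treated and vehicle together, 8 classes were ordered by the mean of log2(CPM + 1). Dendritic cells were not ranked, since conventional, mature and plasmacytoid cells each reached 20 cells in few mice. Among the ranked classes, T and NK lymphocytes came first for Pdcd1, Ctla4, Lag3, Tigit and Pdcd1lg2, neutrophils for Cd274, Havcr2 and Vsir, endothelial cells for Nectin2 and macrophages for Pvr. Averaging over cells instead put macrophages first for Lag3 and endothelial cells first for Pvr. Plasmacytoid dendritic cells, not ranked, had more Lag3 than T and NK lymphocytes in each mouse whose values are given above. The combined class of conventional and mature dendritic cells, in 5 mice, had median levels of 50.3 CPM for Pvr and 33.5 CPM for Pdcd1lg2, against 30.1 CPM for Pvr in macrophages and 24.0 CPM for Pdcd1lg2 in T and NK lymphocytes over 6 mice. Pdcd1 stood 6.09 ± 0.75 above the next class, endothelial cells, on this scale (SD over 6 mice, higher in 6 of 6), and Ctla4 had 8.29 ± 0.35 in T and NK lymphocytes against 1.42 ± 1.30 in B lymphocytes, the next. Several neighbours were not apart beyond their spread: Pvr had 4.91 ± 0.45 in macrophages, 4.91 ± 0.44 in endothelial cells and 4.86 ± 0.45 in tumour cells, and Lag3 had 3.67 ± 1.03 in T and NK lymphocytes and 3.58 ± 1.31 in macrophages (SD over 6 mice). Of 70 neighbouring pairs, 9 were ordered the same way in all 6 mice at the smallest p that sign flips allow (exact permutation p = 0.0313), and none passed adjustment (0.243). These included endothelial cells over fibroblasts and fibroblasts over tumour cells for Nectin2, and macrophages over T and NK lymphocytes for Vsir and Havcr2.

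The genes whose levels followed each checkpoint gene most closely over 57 sums of mouse and class from 14 classes were mostly markers of the same cells. For Pdcd1 they were Cd3g (Pearson r = 0.955), Cxcr6 and Cd3e, and for Ctla4 Cd28 (0.937), Cd3g and Cd3d. Tigit had Lat (0.894), Cd6 and Ctla4, and Havcr2 had Itgax (0.874), Bcl2a1a and Cd244a. Cd274 was followed by Bcl2a1b (0.850), Treml2 and Snx20, Vsir by Srgn (0.761), Def6 and Ltb4r1, and Pdcd1lg2 by Stat4 (0.805), Bcl2a1d and Gpr132. Nectin2 had Sox4 (0.904), Wwc2 and Fkbp9, and Pvr had Itpripl2 (0.791), Arf3 and Tmbim1. Lag3 had the loosest match, Hs3st3b1 at 0.644, then Nudt16 and Gbp8. The sums share libraries and depths, so these values are descriptive.

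The 6 companion lists held 59 other checkpoint genes. None of their 249 testable combinations with a class passed an edgeR adjusted p under 0.05, and 22 had an unadjusted p under 0.05, 13 higher and 9 lower in treated mice. Over all genes, an unadjusted p under 0.05 was reached by 3.85% (T and NK lymphocytes) to 20.8% (endothelial cells) of those tested in a class. An adjusted p under 0.05 was reached by at most 1.57% (endothelial cells). Of the PD-1 axis regulators, 11 of 12 were testable in macrophages with a median log2 fold change of 0.09 and 11 in tumour cells with -0.28, and the most abundant in macrophages were the interferon gamma receptor chain Ifngr1, with treated mice at 191.5 ± 42.5 CPM and vehicle mice at 254 ± 44.5 CPM, and the phosphatase Ptpn6, with treated mice at 165 ± 6.69 CPM and vehicle mice at 167 ± 15.6 CPM (SD, n = 3 each). Of the CTLA-4 axis partners, the ligands were read in dendritic cells, where Cd86 had 135 ± 17.9 CPM in treated (n = 2) and 128 ± 74.6 CPM in vehicle mice (n = 3) and Cd80 had 73.3 ± 18.3 CPM in those treated mice and 47.4 ± 15.3 CPM in those vehicle mice (SD). Their competing receptor Cd28 had 274 ± 59.7 CPM in treated and 207 ± 143 CPM in vehicle T and NK lymphocytes, and the costimulator Icos 322 ± 13.9 CPM in treated and 321 ± 237 CPM in vehicle ones (SD, n = 3 each).

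Of the TIGIT and nectin partners, 2 of 6 were testable in T and NK lymphocytes: the activating receptor Cd226 averaged 105 ± 14.4 CPM over treated mice and 78.02 ± 43.6 CPM over vehicle mice, and Cd96 averaged 42.1 ± 11.2 CPM over treated mice and 34.03 ± 5.25 CPM over vehicle mice (SD, n = 3 each). Among the partners of LAG-3, TIM-3 and VISTA in macrophages, the galectin Lgals3 averaged 1615 ± 379 CPM over treated mice and 1047 ± 150 CPM over vehicle mice, and Hmgb1 averaged 296 ± 18.01 CPM over treated mice and 412 ± 62.1 CPM over vehicle mice (SD, n = 3 each), each without overlap (edgeR adjusted p = 0.592 and 0.549). Of 11885 genes tested in macrophages, 775 had every treated mouse above every vehicle mouse and 1009 had every treated mouse below. Of the other inhibitory receptors and ligands in macrophages, 13 of 20 were testable with a median log2 fold change of 0.17. The CD47 receptor Sirpa had 401 ± 17.9 CPM in treated and 286 ± 70.0 CPM in vehicle macrophages (SD, n = 3 each; edgeR adjusted p = 0.569), and Lilrb4a 263 ± 87.3 CPM in treated and 279 ± 36.1 CPM in vehicle ones. Of the T cell exhaustion factors, 8 of 10 were testable in T and NK lymphocytes with a median of 0.30, led in level by Ikzf2, the gene of the regulatory T cell factor Helios, averaging 711 ± 66.8 CPM over treated mice and 472 ± 125 CPM over vehicle mice, and Nr4a3, averaging 187 ± 34.8 CPM over treated mice and 156 ± 135 CPM over vehicle mice (SD, n = 3 each; edgeR adjusted p = 0.999 for each).

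Endothelial cells held 8 of the 22 combinations with an unadjusted p under 0.05, out of 26 testable there and against 20.8% of all genes in that class. The following were chosen after their values were seen. The early-response nuclear receptor genes Nr4a2 and Nr4a1 had 87.97 ± 25.1 and 151 ± 30.7 CPM in treated endothelial cells and 31.2 ± 17.3 and 74.0 ± 33.9 CPM in vehicle ones, both without overlap (SD, n = 3 each; edgeR adjusted p = 0.0709 and 0.130). In that class, 19.1% of genes tested had every treated mouse above every vehicle mouse. Cd276 (B7-H3) had 42.7 ± 23.6 CPM in treated and 85.2 ± 20.2 CPM in vehicle endothelial cells (SD, n = 3 each; edgeR adjusted p = 0.157). In T and NK lymphocytes, where 3.85% of all genes had an unadjusted p under 0.05, Prdm1 (Blimp-1) was the 1 list gene that did, averaging 51.3 ± 9.44 CPM over treated mice and 28.9 ± 4.44 CPM over vehicle mice (SD, n = 3 each; edgeR adjusted p = 0.999).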

How the data were processed

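The deposited matrices hold raw UMI counts for each gene in each barcode, made with Cell Ranger 5.0.1 on mm10, per the file headers and the submitters' processing notes; the library chemistry is not stated there. Of 44819 barcodes, 39928 passed minimums of 500 UMIs and 250 genes and a limit of 20% mitochondrial UMIs. The highest doublet scores among all barcodes of a library were marked, at 0.8% per 1000 barcodes. The caller's own cut marked at most 0.600%. The 2910 marked barcodes that had passed the limits above and 11 stray red cells were left out. Cells were clustered without the 10 genes (scanpy 1.11.5, 2000 variable genes, 30 components, Leiden resolution 1), giving 32 clusters, divided again and named from fixed markers; the division and the rules that left some unnamed were decided after the clusters were seen. UMIs were summed per mouse and class (at least 20 cells) and tested, treated over vehicle, with edgeR 4.0.16 (TMM, filterByExpr, robust quasi-likelihood, R 4.3.3) and Benjamini-Hochberg adjustment over all genes of the class; DESeq2 1.42.0 was an alternative. Genes under the filter, shares of cells and the order of classes had two-sided exact permutation tests over mice (smallest p 0.1 for 3 against 3). Thinned shares leave out cells with fewer UMIs than the thinned depth. Differences between classes were tested as a class by treatment term. Cells of a mouse are not replicates, so n counts mice; intervals and limits cover counting error only, a count of 0 being read as up to 3.

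The genes and the 6 companion lists were chosen with earlier results of these data known. Named genes are every member and, per list and class described, those that passed or else the 2 most abundant, plus the 3 genes most like each member. Coordinates come from GENCODE on mm10. Counts of genes that overlap another on either strand (Cd274, Pdcd1lg2, Ctla4, Nectin2, Pvr and Vsir) are uncertain by that overlap, since the sources do not state how strand was used. One allele that the mice of both groups shared is not reported here.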

Additional observations from a re-analysis of the deposited data

Results flagged for a closer look

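The groups lay apart for Pvr in opposite directions in different cell classes, and Pvr passed an adjusted p under 0.05 in none of them. Its mean was 37.4 CPM in endothelial cells of treated mice, where every treated mouse was above every vehicle mouse, and 8.55 CPM in T and NK lymphocytes and 1.73 CPM in B lymphocytes of treated mice, where every treated mouse was below every vehicle mouse (in B lymphocytes, 2 vehicle mice with at least 20 cells). The vehicle means were 23.2 CPM in endothelial cells, 17.5 CPM in T and NK lymphocytes and 8.29 CPM in B lymphocytes. The difference between these classes was not tested. Groups lay apart in the same direction for 19.1% of genes tested in endothelial cells, 5.57% in T and NK lymphocytes and 12.2% in B lymphocytes. The lymphocyte values rest on 21 treated and 20 vehicle UMIs in T and NK lymphocytes and on 7 treated and 15 vehicle UMIs in B lymphocytes. Lymphocytes were fixed as classes that should lack Pvr. Tumour markers in B lymphocytes were also lower in every treated mouse, at 67 to 153 CPM, against 431 to 1140 CPM in vehicle mice. Their part in the Pvr values was not tested.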

How the results depend on the processing

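edgeR called none of the 10 genes in any class without a low-count filter, with DESeq2's size factors, with other cell filters, with the replicate block, with doublets kept or without any 1 mouse; DESeq2's own test called 1 in tumour cells, Lag3. Of 209 fold changes under settings other than leaving out a mouse, 200 kept sign and side and 8 turned sign: Havcr2 in tumour cells 0.669, in macrophages -0.0166 with doublets kept and in dendritic cells -0.0728, Nectin2 in tumour cells -0.0297 without the filter and -0.0181 with unnamed Krt8 and Krt18 sub-clusters added (chosen after seeing the data), Pvr there -0.000778 and -0.0263, and Cd274 in neutrophils 0.116. The values of Havcr2 in tumour and dendritic cells and of Cd274 in neutrophils are those with the replicate block. Numbers in the titles were not taken to pair mice, since same-numbered mice deviated together (every r over 0.1) in neutrophils only (0.116, 0.223 and 0.174); the block left 0 members called in every class and 61 genes called in endothelial cells. Thinning to 500 UMIs turned the share difference of Pdcd1 in T and NK lymphocytes to -3.41 and of Cd274 in neutrophils to -2.13 percentage points. The cause of these changes was not tested.

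Leaving out 1 mouse turned the sign of several log2 fold changes: in tumour cells Havcr2 (-1.71 to 2.34), Nectin2 (-0.588 to 0.418) and Pvr (-0.266 to 0.221), in macrophages Havcr2 (-0.259 to 0.378), Pvr (-0.265 to 0.178) and Vsir (-0.439 to 0.152), in neutrophils Cd274 (-0.869 to 0.196), Havcr2 (-1.17 to 0.413) and Vsir (-0.287 to 0.376), in fibroblasts Lag3 (-0.692 to 0.00788), in T and NK lymphocytes Vsir (-0.231 to 0.119) and in dendritic cells Havcr2 (-0.467 to 0.959) and Pvr (-0.225 to 0.127). So did differences between classes: tumour minus macrophage Lag3 (-0.102 to 1.83), Havcr2 (-1.47 to 2.29) and Nectin2 (-0.771 to 0.27), tumour minus endothelial Cd274 (-0.313 to 0.6) and Nectin2 (-0.765 to 0.112), macrophage minus neutrophil Pdcd1lg2 (-1 to 1.4), Lag3 (-6 to 1.72), Havcr2 (-0.726 to 0.967) and Vsir (-0.719 to 0.021). Thinned share differences ran from -1.19 to 3.66 points for Pdcd1 in T and NK lymphocytes, -0.0292 to 0.128 for Lag3 in tumour cells and -6.11 to 5.46 for Cd274 in neutrophils.

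Counts of all genes called moved more. DESeq2 called 587 genes in tumour cells, 203 in macrophages, 2 in neutrophils, 310 in fibroblasts, 255 in endothelial cells and 3 in B lymphocytes, where edgeR called 0, 0, 0, 0, 160 and 15. Without the filter edgeR called 35 in macrophages, 7 in neutrophils, 707 in endothelial cells, 82 in T and NK lymphocytes, 81 in B lymphocytes and 23 in dendritic cells. Leaving out 1 mouse gave 0 to 842 in endothelial cells, 3 to 31 in T and NK lymphocytes and 15 to 103 in B lymphocytes. Depth limits Tigit, with 117 UMIs, and every receptor in T cell subsets.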
